A study of Mus musculus with 6 samples.

Results

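Embryonic neurons rich in Pomc transcript were compared with embryonic neurons of the same libraries that carried little of it. A cell was counted as a neuron when at least 3 of 6 neuronal genes (Elavl3, Mapt, Snap25, Stmn2, Syt1, Tubb3) had 1 or more unique molecular identifiers (UMIs, 1 for each captured transcript). Pomc-high neurons held at least 10 Pomc UMIs per 10000 UMIs of the cell and Pomc-low neurons held fewer than 3. The rule took 1785 Pomc-high and 3621 Pomc-low neurons out of 6224 neurons, and 818 neurons lay between the limits. These neurons came from 6511 embryonic cells of a series of 13953 cells.

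The study followed the development of hypothalamic Pomc cells by single-cell RNA sequencing. Its embryonic part held 4 libraries, spaced every other day between E11.5 and E17.5, and each was 1 pool of hypothalami from at least 6 animals of the C57BL/6 strain. The parents on both sides were POMCDsRed/+, and papain digestion was longer at the later ages. Dissociated cells were sorted for red fluorescent protein and run with version 2 of the Chromium 3′ chemistry. The reporter is a Pomc-TdDsRed transgene, so that the sort took cells in which this transgene was or had recently been active, and the authors kept cells with at least 1 Pomc UMI. Both classes are therefore sorted reporter cells with some Pomc, and neurons without the reporter were not measured. Each age was a single pool. A value at one age has no repeat of its own, and the 4 libraries served as the repeats of the contrast within a library. Their spread therefore also holds any change of the contrast with age, and no test was made between ages.

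Pomc encodes the precursor of alpha-MSH and beta-endorphin. Neurons of the arcuate nucleus that make it lower food intake through the melanocortin receptors, and they lie beside neurons that make Agrp and Npy and raise it. Pomc neurons are born early in the ventral hypothalamus, and homeodomain and zinc finger factors such as Isl1, Nkx2-1 and Prdm12 are known to be needed for their Pomc expression. Some progenitors and young neurons that transcribe Pomc in the embryo later take on other fates, among them Agrp and Npy neurons.

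The promoters of Pomc, which set the classes, and of Prdm12, the marker factor of the Pomc-high class that passed the test, are shown. Each runs from 250 bases before to 50 bases after the start of the gene, from RefSeq (GRCm38.p6). Capitals mark the homeodomain core TAATTA, which is its own reverse complement. They also mark TATAAA, the core promoter element bound by TBP. All motifs were searched on both strands.
Pomc, chr12:3954695-3954994, plus strand: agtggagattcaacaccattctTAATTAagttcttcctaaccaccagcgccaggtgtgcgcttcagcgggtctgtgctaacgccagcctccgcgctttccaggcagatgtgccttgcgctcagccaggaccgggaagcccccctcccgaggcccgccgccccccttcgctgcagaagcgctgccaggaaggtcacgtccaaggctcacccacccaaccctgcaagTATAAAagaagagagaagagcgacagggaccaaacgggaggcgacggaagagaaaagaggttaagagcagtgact
Prdm12, chr2:31639787-31640086, plus strand: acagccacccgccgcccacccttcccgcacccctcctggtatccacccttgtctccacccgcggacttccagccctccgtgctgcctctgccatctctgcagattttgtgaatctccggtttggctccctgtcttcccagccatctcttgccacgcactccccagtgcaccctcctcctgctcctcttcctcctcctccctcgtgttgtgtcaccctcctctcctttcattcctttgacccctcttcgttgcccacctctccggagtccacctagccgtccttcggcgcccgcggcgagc
The Pomc stretch held 1 match to TAATTA, 228 bases before the start, and 1 to TATAAA, 25 bases before it, and the matches did not overlap. TAATTA occurred in 5.29% and TATAAA in 13.6% of all 32851 promoter entries of this length. The NR5A site CAAGGTCA, searched on both strands, was in 1.56% of them and in neither stretch. A promoter entry was found for 6 of the 9 genes Pomc, Prdm12, Six3, Six6, Nr5a1, Isl1, Nkx2-1, Tbx3 and Rax, and of those only the Pomc entry held any of the 3 motifs.

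Cells were deeply and unequally sampled. In order of age, median UMIs per Pomc-high neuron were 17617, 17166.5, 12240.5 and 8791.5, and those per Pomc-low neuron were 17325, 11690, 10570 and 7928. Sets of 4 values are given in this order throughout. The classes were closest in depth at E11.5 and furthest apart at E13.5. Summed UMIs per class and library ranged from 2899014 in the Pomc-high neurons of E17.5 to 14609749 in the Pomc-low neurons of E11.5. Libraries shared between 1 and 5 cell barcodes with one another. Possible doublets were kept, and the cells of the top 5% of Scrublet scores made up 3.51% to 6.87% of the Pomc-high and 4.86% to 6.57% of the Pomc-low neurons of a library.

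Pomc-high neurons were 485 of 1376 neurons at E11.5, or 35.2% (95% Clopper-Pearson interval 32.7% to 37.8%). Their share was 26.8% (24.7% to 29.0%, 456 of 1699), 26.0% (24.1% to 28.0%, 524 of 2015) and 28.2% (25.6% to 30.9%, 320 of 1134) in the later libraries. These intervals, like all others here, cover counting error only. Pomc itself chose the classes and is given as a description. Its summed level was 32.7, 35.3, 42.8 and 25.8 UMIs per 10000 in the Pomc-high neurons of the 4 libraries, and 0.743, 1.03, 1.19 and 1.45 in the Pomc-low neurons. Cells that carried at least 4 of 8 mesenchymal markers, used here as the background for free RNA, held 2.03, 1.95 and 1.26 Pomc UMIs per 10000 at E11.5, E13.5 and E15.5, more than the Pomc-low neurons of the same library. The background cells had no upper limit on Pomc, whereas the rule capped the Pomc-low neurons below 3. They also passed the sort and held at least 1 Pomc UMI. Some counted as neurons too, since E11.5 had 203 of them among 1498 cells, of which 1376 were neurons. They are therefore no independent measure of free RNA, and a low Pomc level in Pomc-low neurons can not be told apart from it. At E17.5 no cell carried at least 4 of the 8 mesenchymal markers. The Pomc-high neurons nearest to the limit held 10.05 to 10.13 Pomc UMIs per 10000 and the neurons just below it 9.89 to 9.99. The highest Pomc-low neurons held 2.986 to 2.998 and the lowest neurons above that limit 3.0003 to 3.020. Between 71.7% and 81.0% of the Pomc-low neurons of a library held exactly 1 Pomc UMI.

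Some Pomc-low neurons carried markers of other cell types. At least 3 of the 8 mesenchymal markers were found in 83, 74, 27 and 0 Pomc-low neurons, and in 7, 8, 1 and 0 Pomc-high neurons. The summed level of the mesenchymal list ran from 0.0164 to 8.22 UMIs per 10000 in the Pomc-low and from 0.0310 to 0.613 in the Pomc-high neurons. All 8 members of the list, Col1a1, Col1a2, Col3a1, Lum, Dcn, Pdgfra, Foxc1 and Twist1, passed the test as lower in Pomc-high neurons. None did so without the cells that carried at least 3 mesenchymal or 3 macrophage markers, when 4 members were still tested. The same genes chose the cells left out, so this loss follows in part from the choice. The macrophage list summed to between 0.00411 and 1.70 in the Pomc-low and between 0.00345 and 0.628 in the Pomc-high neurons, and 2 of its 8 members, C1qc and Cx3cr1, were lower in Pomc-high neurons. Lum, Dcn, Foxc1 and Twist1 stood at 0 in both classes at E17.5. Of the pituitary list, with Tbx19, Pitx1, Pou1f1, Cga, Gh, Prl, Fshb and Tshb, no member had enough UMIs for a test, and its sum was at most 0.0207. The 6 hemoglobin genes summed to between 0.486 and 37.1 in the Pomc-high and between 0.573 and 36.2 in the Pomc-low neurons, and none passed the test.

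For each gene, UMIs were summed over the neurons of a class in a library, and the 8 sums were tested with edgeR's quasi-likelihood test with the library as a block. A gene passed with a Benjamini-Hochberg adjusted p under 0.05 over all 12463 genes tested. Higher in Pomc-high neurons were 230 genes (1.85%) and lower were 506 genes (4.06%). The counts of list members given below are to be read beside these shares of all genes tested. The median log2 ratio of all genes tested was near 0 (0.00070). All 4 libraries put a gene higher in the Pomc-high class for 9.68% of the genes tested and lower for 22.7%. For some named genes below, the values of the classes did not overlap across ages. The share of all genes without such overlap was not counted. With DESeq2 the counts were 495 higher and 633 lower, so that higher genes made up 43.9% of the calls in place of 31.2%. Without the cells with markers of other types the counts were 174 and 273, and with every cell thinned to 5000 UMIs they were 167 and 276. Leaving out a library gave 137 and 287 without E11.5, 41 and 136 without E13.5, 55 and 232 without E15.5, and 411 and 841 without E17.5. The text names 84 genes that passed, and 34 of these passed with every library left out in turn.

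Of the factors that mark the class, Prdm12 passed the test and Six3, Six6, Nr5a1 and Isl1 did not. Prdm12, a zinc finger factor of the PR domain family (chromosome 2, 31640037 to 31655795, plus strand, GRCm38), stood at 1.07, 1.42, 1.00 and 0.569 UMIs per 10000 in Pomc-high neurons. In Pomc-low neurons it stood at 0.106, 0.252, 0.298 and 0.113. Every Pomc-high value lay above every Pomc-low value, and the ratio was 10.0 (95% counting interval 8.47 to 12.0), 5.62 (4.97 to 6.37), 3.36 (2.97 to 3.81) and 5.04 (3.69 to 6.97). The fitted log2 ratio was 2.56 ± 0.25 (SE, n = 4 libraries; edgeR adjusted p = 0.00313). The background cells held 0.0753, 0.108 and 0.0425 at the first 3 ages, below the Pomc-low neurons. Over 17 alternatives the log2 ratio lay between 2.005 and 2.844, and the gene passed in 16 of them and not in the fit without a library block (adjusted p = 0.133).

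**Figure D1:**
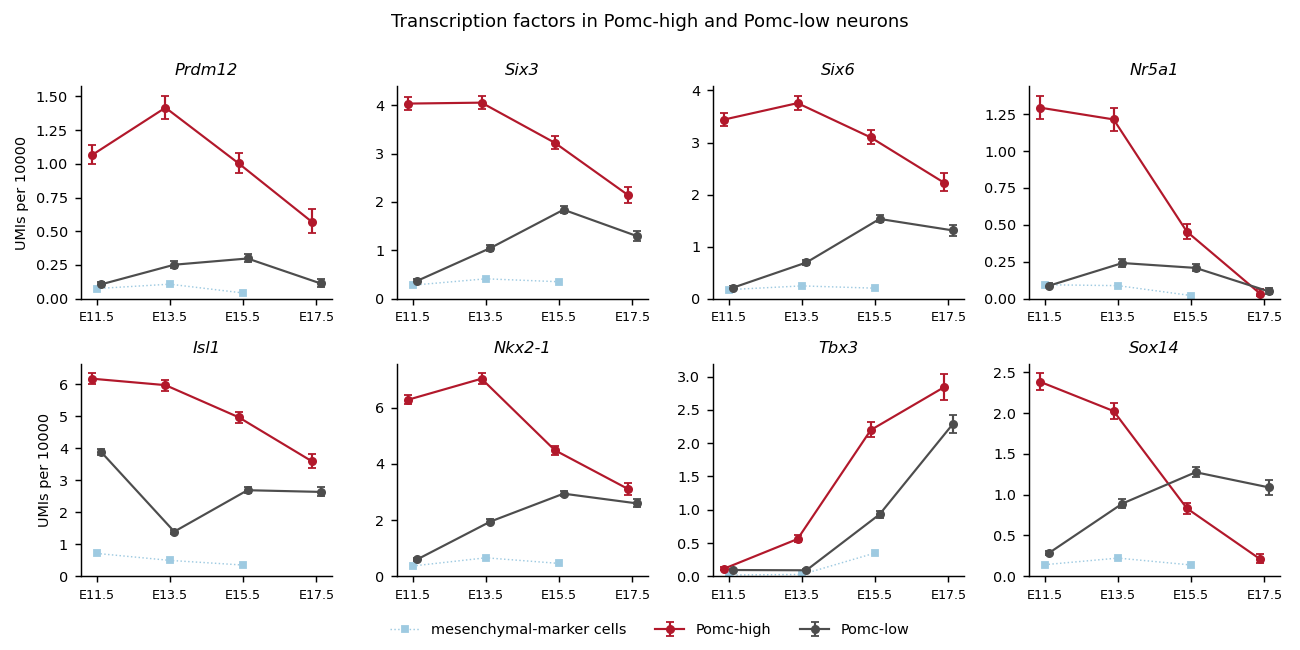
UMIs per 10000 (y axis, linear, from 0) of 8 transcription factors in the Pomc-high (red) and Pomc-low (grey) neurons of each embryonic library (x axis), with 95% Poisson intervals, and in mesenchymal-marker cells (blue, none at E17.5). Lines join separate pools. The red points of Prdm12 stay well above the grey ones at every age, while those of Nr5a1 and Sox14 cross them by E17.5.

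Six3 (chromosome 17, 85613608 to 85629302) and Six6 (chromosome 12, 72939892 to 72944899), homeodomain factors of the forebrain and eye field, stood higher in the Pomc-high neurons of each library without passing the test. Six3 stood at 4.03, 4.05, 3.22 and 2.14 UMIs per 10000 in Pomc-high and at 0.368, 1.05, 1.84 and 1.30 in Pomc-low neurons, in order of age. The ratio was 11.0 (10.0 to 12.0) at E11.5 and 1.65 (1.48 to 1.85) at E17.5. Its fitted log2 ratio was 1.80 ± 0.46 (adjusted p = 0.0713). Six6 stood at 3.44, 3.76, 3.10 and 2.23 in Pomc-high and at 0.212, 0.696, 1.53 and 1.31 in Pomc-low neurons (log2 ratio 2.10 ± 0.55, adjusted p = 0.0738). For both genes all 4 Pomc-high values exceeded all 4 Pomc-low values, and the share of all genes that do so was not counted. With every cell thinned to 5000 UMIs, the adjusted p was 0.0260 for Six3 and 0.0388 for Six6, and without the cells with markers of other types it was 0.0886 and 0.0896. Six3 passed in 3 and Six6 in 4 of 17 alternatives.

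Isl1, a LIM homeodomain factor (chromosome 13, 116298281 to 116309689), stood at 6.18, 5.98, 4.97 and 3.59 UMIs per 10000 in Pomc-high neurons. The Pomc-low neurons held 3.89, 1.40, 2.69 and 2.64. The classes overlapped across ages, since the Pomc-low value of E11.5 lay above the Pomc-high value of E17.5, but within each library the Pomc-high value was the higher one. The fitted log2 ratio was 1.10 ± 0.28 (adjusted p = 0.0691, 0.0355 in thinned cells and 0.0954 without the cells with markers of other types), and the gene passed in 4 of 17 alternatives. Nkx2-1, a homeodomain factor of the ventral forebrain, resembled Six3 and Six6, with 6.29, 7.03, 4.49 and 3.11 in Pomc-high and 0.598, 1.95, 2.94 and 2.59 in Pomc-low neurons. Its ratio was 10.5 (9.78 to 11.3) at E11.5 and 1.198 (1.10 to 1.31) at E17.5, and the contrast did not pass (log2 ratio 1.59 ± 0.52, adjusted p = 0.119).

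Nr5a1, a nuclear receptor (chromosome 2, 38692656 to 38714542) best known from the gonad, adrenal and ventromedial hypothalamus, was the marker whose order depended on the library. Pomc-high neurons held 1.29, 1.21, 0.454 and 0.0345 UMIs per 10000 and Pomc-low neurons 0.0883, 0.242, 0.209 and 0.0493. The ratio was 14.6 (12.2 to 17.7) at E11.5, 5.02 (4.43 to 5.72) at E13.5 and 2.18 (1.85 to 2.56) at E15.5. At E17.5 it rested on 10 and 24 UMIs and was 0.700 (0.299 to 1.52), an interval that includes 1. The fitted log2 ratio was 2.25 ± 0.57 (adjusted p = 0.0685). The adjusted p was 0.00699 in thinned cells, 0.139 with DESeq2 and 0.0886 without the cells with markers of other types, and the gene passed in 4 of 17 alternatives. Nr0b1, a nuclear receptor that binds Nr5a1, stood at 0.986, 0.501, 0.204 and 0.0621 in Pomc-high and at 0.0705, 0.132, 0.176 and 0.158 in Pomc-low neurons. Its ratio was 14.0 (11.4 to 17.3) at E11.5 and 0.393 (0.221 to 0.663) at E17.5, and its fitted contrast was 1.498 ± 0.76 (adjusted p = 0.273).

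The list held 20 known or possible regulators of Pomc neurons, and whether they act on Pomc was not tested here. Of these genes 17 had enough UMIs for a test. Higher were 2 of them, Prdm12 and Rax, and lower was 1, Hmx2. The median log2 ratio of the list was 1.21, and 10 of its genes were higher in the Pomc-high neurons of all 4 libraries. The list was chosen with earlier results of these data known, so it is no independent sign of a direction. With cells thinned to equal depth 6 members were higher among 14 tested, and with DESeq2 7 among 17. With at least 10 UMIs in every sum 1 of 14 tested members was higher and 0 were lower. Hmx2, with 0 UMIs in some Pomc-high sums, was not among those tested there. Without E15.5 1 was higher and without E17.5 5. Rax, a homeodomain factor of the hypothalamic and retinal anlage, stood at 0.0126, 0.0230, 0.0984 and 0.131 UMIs per 10000 in Pomc-high and at 0.00274, 0.00743, 0.0315 and 0.0267 in Pomc-low neurons (log2 ratio 1.96 ± 0.25, adjusted p = 0.00839). The values are low, with 11 and 4 UMIs behind those of E11.5, and the background cells of E15.5 held 0.0425. Hmx2, a homeodomain factor, had 0 UMIs in the Pomc-high neurons of E11.5, E13.5 and E17.5, which allows levels up to 0.00343, 0.00384 and 0.0103. It stood at 0.0164, 0.0260, 0.138 and 0.0883 in Pomc-low neurons, and at E15.5 it was 8.65-fold (4.73 to 17.6) higher in them.

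Other members of the list that lay on the Pomc-high side without passing were the SoxB1 genes. Sox2 stood at 1.03, 2.70, 1.66 and 2.04 UMIs per 10000 in Pomc-high and at 0.226, 0.875, 1.28 and 1.59 in Pomc-low neurons (adjusted p = 0.0827). Sox3 stood at 1.41, 0.993, 0.595 and 0.348 against 0.153, 0.289, 0.345 and 0.187 (adjusted p = 0.0527). Sox1 stood at 0.655, 1.14, 1.11 and 0.876 against 0.198, 0.973, 0.674 and 0.677 (adjusted p = 0.0844). All 3 genes were higher in the Pomc-high neurons of each library. Tbx3, a T-box factor of the arcuate nucleus, stood at 0.115, 0.560, 2.199 and 2.84 in Pomc-high and at 0.0938, 0.0899, 0.931 and 2.29 in Pomc-low neurons (adjusted p = 0.121). Nhlh2, a helix-loop-helix factor, stood at 2.2 to 2.96 in Pomc-high and at 2.77 to 4.66 in Pomc-low neurons (log2 ratio -0.31 ± 0.16, adjusted p = 0.278).

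Neurons were also grouped by their Pomc level in 5 steps, to see where along the Pomc scale the factors differed. This is a description, since the steps come from the same measure as the classes. Neurons of the step between the limits, with 3 to 10 Pomc UMIs per 10000, held 0.993 Prdm12 UMIs per 10000 at E11.5 and 1.16 at E13.5, close to the 1.11 and 1.26 of the step from 10 to 20. At E15.5 and E17.5 Prdm12 was 0.516 and 0.249 in that step against 0.888 and 0.505 in the next. At the first 2 ages the widest gap of Prdm12 thus lay below 10 Pomc UMIs per 10000. Nkx2-1 and Six3 were not higher in the top step of 40 or more than in the step from 10 to 20 at E13.5, with 6.2 against 8.08 for Nkx2-1 and 3.42 against 4.55 for Six3. Six6 was, with 4.605 against 3.51 at E13.5 and 3.61 against 1.64 at E17.5. Otp had another shape, with 3.44 in the step from 3 to 10 at E15.5, near the 3.20 of Pomc-low neurons, and 0.674 in the step from 10 to 20. Npy was 2.06 and 0.233 in the same steps of E15.5. Summed over the neurons between the limits, Prdm12 of E11.5 and E13.5 was thus near the Pomc-high level and Otp of E15.5 near the Pomc-low level.

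**Figure D2:**
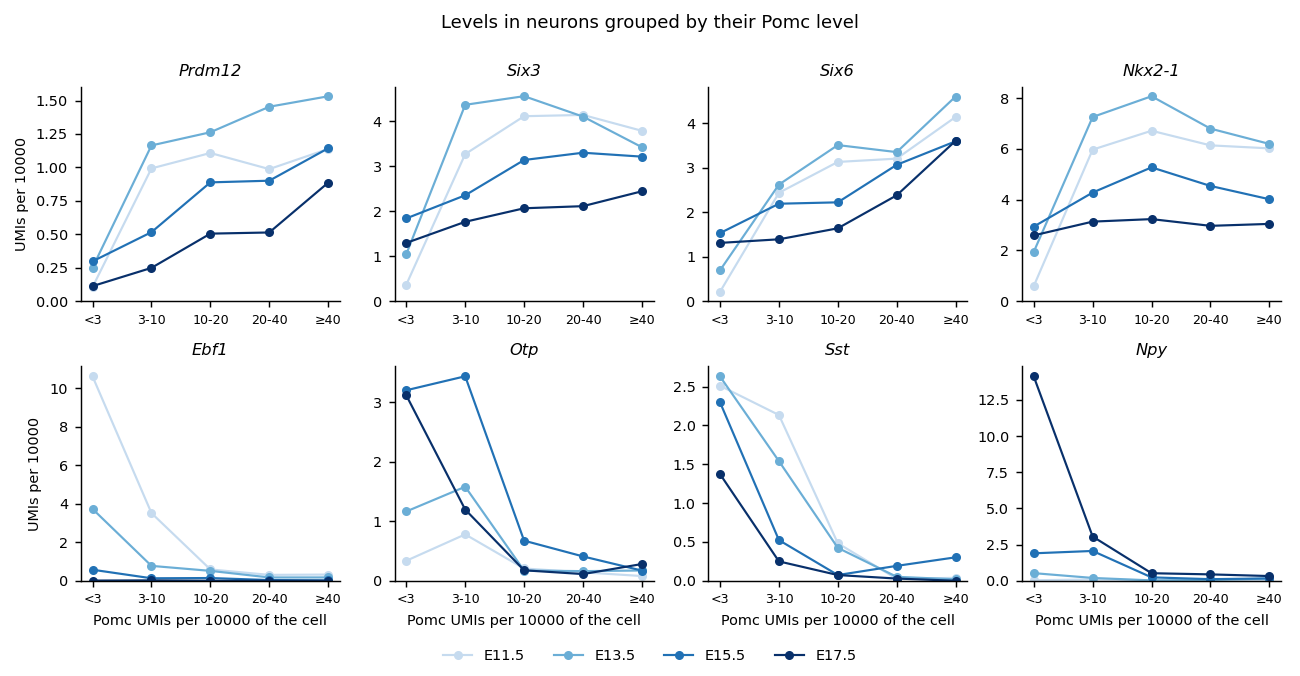
UMIs per 10000 (y axis, linear, from 0) of 8 genes in neurons grouped by their own Pomc level (x axis, Pomc UMIs per 10000 of the cell), with a line for each embryonic library. Prdm12 and Six3 are near their upper level from 3 to 10 onward at E11.5 and E13.5, whereas Otp at E15.5 stands at 3.44 between 3 and 10 and at 0.674 between 10 and 20.

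Transcription factors of other hypothalamic lineages lay mostly on the Pomc-low side. Of 39 genes in this list 29 were tested, none was higher and 20 were lower in Pomc-high neurons, with a median log2 ratio of -3.07, and 19 of the 29 were lower in all 4 libraries. Among the lower genes were Ebf1, Ebf2, Ebf3, Pou4f1, Otp, Dlx1, Dlx2, Dlx5, Nr4a2, Barhl1, Lhx1, Lhx9, Lmx1a, Lmx1b, Foxa1, Meis2, Uncx, Irx3 and Irx5, and 20 were also lower without the cells with markers of other types. Without E13.5 14 were lower, and without E17.5 24 of 32. A stricter filter of at least 10 UMIs in every sum left 7 members, of which 2 passed, thinning left 20, of which 13 passed, and means over cells tested with limma left 1.

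Ebf1, a helix-loop-helix factor of young neurons, stood at 10.6, 3.73, 0.573 and 0.00821 UMIs per 10000 in Pomc-low neurons. The Pomc-high neurons held 0.396, 0.279, 0.0521 and 0, the last of which allows up to 0.0103. The gene was 26.8-fold (24.1 to 29.9) higher in Pomc-low neurons at E11.5 and 11.0-fold (7.87 to 15.8) at E15.5 (log2 ratio -3.96 ± 0.25, adjusted p = 0.00104), but at E17.5 it rested on 0 and 4 UMIs. The mesenchymal-marker cells also held Ebf1, at 3.52, 0.880 and 0.722. Without cells that carried markers of other types the log2 ratio was -4.09. Ebf2 and Ebf3 were lower as well, by log2 ratios of -3.20 ± 0.43 and -2.90 ± 0.28. Pou4f1, a POU factor, stood at 1.75, 3.28, 0.418 and 0 in Pomc-low and at 0.0503, 0.168, 0.0477 and 0.00345 in Pomc-high neurons (log2 ratio -4.12 ± 0.38, adjusted p = 0.00259), with 1 UMI in all at E17.5.

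Otp, a homeodomain factor of neuroendocrine and Agrp neurons, had its highest levels in the later libraries. Pomc-low neurons held 0.336, 1.17, 3.20 and 3.12 UMIs per 10000 and Pomc-high neurons 0.144, 0.168, 0.369 and 0.169. The fold towards Pomc-low neurons was 2.33 (1.91 to 2.86) at E11.5 and 18.4 (13.9 to 25.0) at E17.5, and the fitted log2 ratio was -2.72 ± 0.43 (adjusted p = 0.0161). Nr4a2, a nuclear receptor of dopamine neurons, stood at 1.10, 4.37, 1.62 and 0.146 in Pomc-low and at 0.0434, 0.298, 0.205 and 0.0586 in Pomc-high neurons (log2 ratio -3.41 ± 0.40, adjusted p = 0.00570). Lhx9 reached 2.48 in the Pomc-low neurons of E13.5 against 0.129, Foxa1 1.39 against 0.152 and Barhl1 1.41 against 0.134. Meis2, a homeodomain factor of the TALE class, stood at 3.07 in the Pomc-low neurons of E11.5 against 0.0972 and at or below 0.0387 in either class later, and without E11.5 it had too few UMIs for a test.

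**Figure D3:**
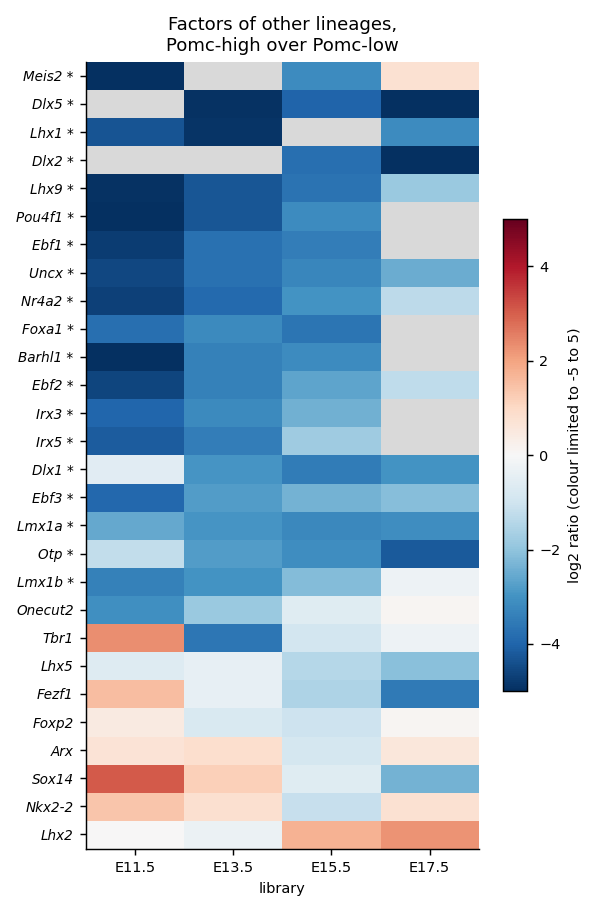
Log2 ratio of Pomc-high over Pomc-low neurons (colour, blue for lower in Pomc-high) of 28 tested factors of other lineages (rows, ordered by the fitted ratio) in each library (columns). An asterisk marks the 19 of them that passed the test, and grey marks a class with 0 UMIs. The rows with an asterisk are blue in nearly all cells that hold a value, and Sox14 is red at E11.5 and blue at E17.5.

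Among the 9 factors that did not pass, the order of the classes differed between libraries for Sox14. It stood at 2.38, 2.03, 0.833 and 0.210 UMIs per 10000 in Pomc-high and at 0.287, 0.892, 1.28 and 1.09 in Pomc-low neurons. The ratio was 8.31 (7.48 to 9.25) at E11.5 and 0.193 (0.146 to 0.252) at E17.5, with counting intervals on opposite sides of 1, and the difference between ages was not tested. Lhx2, a LIM homeodomain factor, stood at 0.532, 0.255, 0.402 and 0.542 in Pomc-high and at 0.518, 0.314, 0.122 and 0.113 in Pomc-low neurons (adjusted p = 0.224). Onecut2 stood at 6.13 in the Pomc-low neurons of E11.5 against 0.739, and at 0.166 against 0.176 at E17.5 (adjusted p = 0.116).

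With all 4 libraries, neuropeptide genes other than Pomc were lower in Pomc-high neurons or did not pass. Of 26 listed genes 12 were tested, and 7 of them, Cartpt, Npy, Agrp, Tac1, Tac2, Sst and Adcyap1, were lower in Pomc-high neurons, with a median log2 ratio of the list of -1.80. The 5 tested members that did not pass lay on either side, with log2 ratios from -1.23 to 0.96. The lower members were 3 without E13.5, 4 without E15.5 and 4 with the Pomc-high limit at 5. With at least 10 UMIs in every sum 1 of 2 tested members was lower, and with limma on means over cells 1 of 12. Without E11.5, 1 of 13 tested members was higher in Pomc-high neurons and 6 were lower. Npy stood at 0.0315, 0.525, 1.89 and 14.1 UMIs per 10000 in Pomc-low neurons and at 0.00800, 0.0729, 0.161 and 0.459 in Pomc-high neurons. The fold towards Pomc-low neurons was 3.93 (1.76 to 10.3) at E11.5 and 30.8 (25.9 to 36.8) at E17.5 (log2 ratio -3.67 ± 0.42, adjusted p = 0.00560). Agrp, the antagonist of the melanocortin receptors, was near 0 in both classes at E11.5 and E13.5 and stood at 0.383 and 5.32 in Pomc-low against 0.0376 and 0.124 in Pomc-high neurons at E15.5 and E17.5. Its fold was 42.9 (30.9 to 61.3) at E17.5, while the intervals at E11.5 and E13.5 included 1 (log2 ratio -4.01 ± 0.68, adjusted p = 0.0219). With DESeq2 Agrp did not pass (adjusted p = 0.0993).

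Sst, which encodes somatostatin, had the smallest adjusted p of the peptides. Pomc-low neurons held 2.51, 2.63, 2.30 and 1.37 UMIs per 10000 and Pomc-high neurons 0.168, 0.159, 0.211 and 0.0448, a log2 ratio of -3.85 ± 0.20 (adjusted p = 0.000508). All Pomc-low values lay above all Pomc-high values. Tac2, which encodes neurokinin B, had no UMI in either class at E11.5 and 2 UMIs in each at E13.5, and stood at 0.307 and 1.17 in Pomc-low against 0.0984 and 0.166 in Pomc-high neurons at E15.5 and E17.5 (log2 ratio -2.08 ± 0.38, adjusted p = 0.0353, and 0.546 with DESeq2). Cartpt, which is co-expressed with Pomc in adult neurons, stood at 1.94, 0.164, 0.0996 and 0.0760 in Pomc-low and at 0.0652, 0.00512, 0.0260 and 0.0586 in Pomc-high neurons (adjusted p = 0.0490). It did not pass without the cells with markers of other types (0.0625). Tac1 was highest in the Pomc-low neurons of E13.5, at 1.21 against 0.116.

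**Figure D4:**
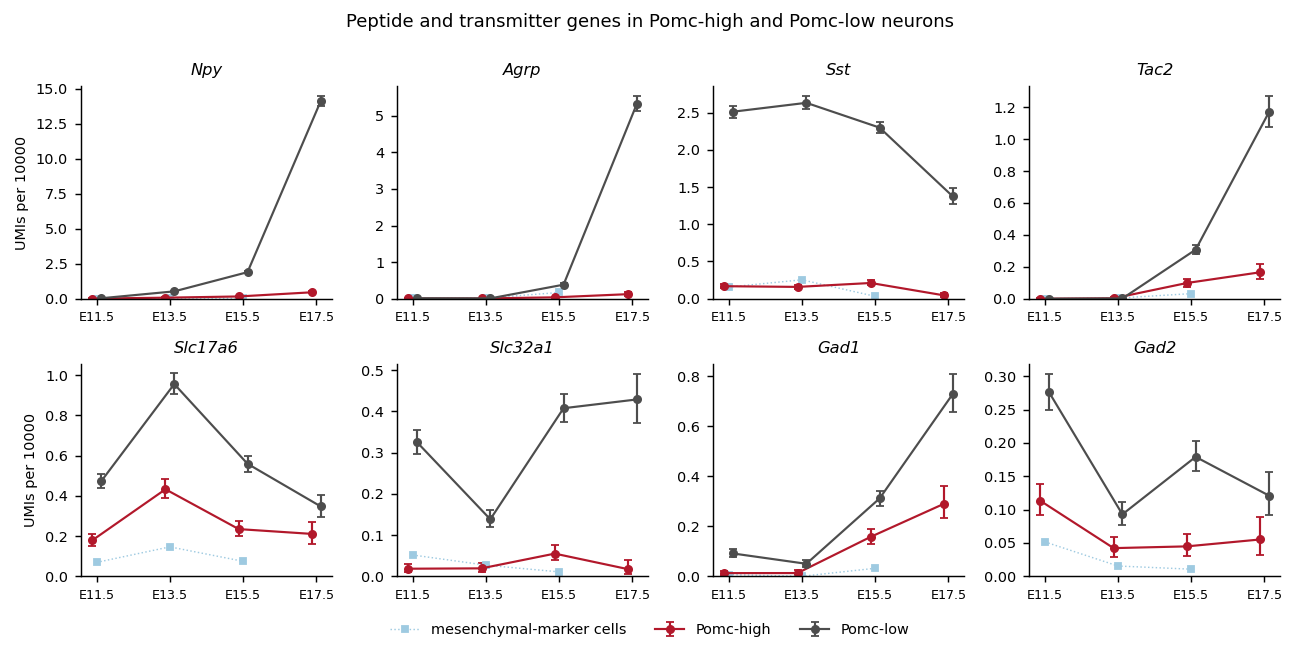
UMIs per 10000 (y axis, linear, from 0) of 4 peptide genes and 4 transmitter genes in Pomc-high (red) and Pomc-low (grey) neurons of each embryonic library (x axis), with 95% Poisson intervals, and in mesenchymal-marker cells (blue, none at E17.5). Grey lies above red for Slc17a6, Slc32a1, Gad1 and Gad2 in each library, and Npy and Agrp separate most at E17.5.

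Transmitter genes of both kinds were lower in Pomc-high neurons. Of 11 tested genes of this list 4 were lower, namely Slc17a6, the vesicular transporter of glutamate, and Slc32a1, Gad1 and Gad2, which load and make GABA, and 1 was higher, Hdc. Slc17a6 stood at 0.178, 0.432, 0.234 and 0.210 UMIs per 10000 in Pomc-high and at 0.471, 0.955, 0.559 and 0.347 in Pomc-low neurons (log2 ratio -1.06 ± 0.12, adjusted p = 0.00462). Slc32a1 had the wider contrast, with 0.0183, 0.0192, 0.0550 and 0.0172 against 0.325, 0.138, 0.408 and 0.429 (log2 ratio -3.39 ± 0.30, adjusted p = 0.00233). Gad1 stood at 0.0126, 0.0128, 0.158 and 0.290 in Pomc-high neurons, while Pomc-low neurons held 0.0910, 0.0498, 0.311 and 0.729 (adjusted p = 0.0259, and 0.0704 in thinned cells). Gad2 was lower in all 4 libraries too (log2 ratio -1.31 ± 0.20, adjusted p = 0.0133). Hdc, which makes histamine, stood at 0.111, 0.185, 0.0781 and 0.0207 in Pomc-high and at 0.0240, 0.0178, 0.0236 and 0.0226 in Pomc-low neurons (adjusted p = 0.0474), and did not pass without the cells with markers of other types (0.0659).

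Shares of cells with a UMI were compared at 5000 UMIs a cell, which left out 0, 2, 18 and 37 Pomc-high and 0, 26, 23 and 36 Pomc-low neurons. Neither Slc17a6 nor Gad1 or Gad2 had a UMI in 88.2% (85.0% to 91.0%), 79.7% (75.7% to 83.3%), 83.0% (79.4% to 86.2%) and 77.4% (72.1% to 82.1%) of Pomc-high neurons. In Pomc-low neurons these shares were 67.9%, 60.6%, 64.2% and 61.9%. In background cells they were 96.1%, 92.9% and 91.4% at the first 3 ages, and without thinning 65.4%, 48.9%, 64.3% and 64.7% of Pomc-high and 40.1%, 35.9%, 42.4% and 47.8% of Pomc-low neurons had neither. At 5000 UMIs most neurons of both classes thus showed none of these 3 genes, whereas at full depth most Pomc-low neurons showed at least 1 of them. Slc17a6 without Gad1 or Gad2 was seen in 7.22%, 16.7%, 8.30% and 7.42% of Pomc-high neurons, and Gad1 or Gad2 without Slc17a6 in 4.12%, 2.42%, 7.51% and 13.4%. In Pomc-low neurons the first pattern was seen in 17.1%, 33.9%, 17.9% and 9.81% and the second in 14.6%, 4.49%, 16.8% and 26.7%. Background cells showed the first in 1.97%, 6.55% and 5.71% (1.58% to 14.0% at E15.5) at the first 3 ages, so that the Pomc-high share of E15.5 lies within the counting interval of the background. They showed the second in 1.97% (0.539% to 4.97%), 0.595% (0.0151% to 3.27%) and 2.86% (0.348% to 9.94%), and the Pomc-high shares of the second pattern lie within these intervals at all 3 ages.

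The factors were counted together in the same thinned cells. At least 3 of the 5 factors Prdm12, Six3, Six6, Isl1 and Nkx2-1 had a UMI in 94.2% (91.8% to 96.1%), 91.4% (88.4% to 93.8%), 80.4% (76.7% to 83.8%) and 66.8% (61.0% to 72.2%) of Pomc-high neurons. Pomc-low neurons reached 10.3%, 17.9%, 35.3% and 26.7%, and background cells 4.93%, 5.95% and 0% (upper limit 5.13%, 0 of 70 cells) at the first 3 ages. Without thinning the Pomc-high shares were 99.8%, 99.1%, 94.5% and 85.9%. None of the 5 had a UMI in 0.206% to 1.06% of Pomc-high neurons, against 54.3%, 68.4%, 26.0% and 10.8% of Pomc-low neurons.

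Enzymes and granule proteins that process prohormones did not pass in either direction. All 16 were tested, and their median log2 ratio was 0.04. With DESeq2 2 of them were higher in Pomc-high neurons, Pcsk1n (adjusted p = 0.0119) and Cadps (adjusted p = 0.0296). Without a filter on low counts 2 were higher, and without E17.5 also 2. Pcsk1 and Pcsk2 are the convertases that cut the Pomc precursor. Pcsk2 stood at 0.0560, 0.200, 0.571 and 1.22 UMIs per 10000 in Pomc-high and at 0.401, 1.05, 0.511 and 0.567 in Pomc-low neurons. The ratio was 0.140 (0.102 to 0.187) at E11.5 and 2.16 (1.84 to 2.54) at E17.5, and a fit over all ages gave -0.80 ± 0.66 (adjusted p = 0.498). Pcsk1 stayed at or below 0.0690 in each class. Cpe, which trims the cut peptides, stood at 4.29 to 5.34 in Pomc-high and at 3.59 to 6.27 in Pomc-low neurons (adjusted p = 0.337). Pcsk1n, an inhibitor of Pcsk1, stood at 13.2, 22.6, 27.8 and 39.9 in Pomc-high and at 7.02, 16.4, 20.6 and 40.6 in Pomc-low neurons (adjusted p = 0.0898).

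Among receptors 15 of 24 were tested. Higher in Pomc-high neurons were 2, Prokr1 and Prlr, and lower was 1, Sstr2. Prokr1, a receptor for prokineticins, stood at 0.0515, 0.0550, 0.194 and 0.3001 UMIs per 10000 in Pomc-high and at 0.0130, 0.0119, 0.0186 and 0.0246 in Pomc-low neurons (log2 ratio 2.90 ± 0.31, adjusted p = 0.00428). It was higher in Pomc-high neurons of each library, and along the Pomc steps of E17.5 its level was 0.198 between 10 and 20 and 0.475 at 40 or more. Prlr, the prolactin receptor, stood at 0.00343, 0.0205, 0.0955 and 0.235 in Pomc-high neurons and at 0, 0.000743, 0.0150 and 0.0842 in Pomc-low neurons, where 0 allows up to 0.00205 (adjusted p = 0.0341). Sstr2, a somatostatin receptor, was at most 0.00868 in the Pomc-high neurons of each library and at 0.0157 to 0.116 in Pomc-low neurons (adjusted p = 0.0211). Lepr, the leptin receptor, stood at or below 0.0226 in each class and at 0.0968 to 0.297 in mesenchymal-marker cells (adjusted p = 0.158).

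Genes of progenitors and of the cell cycle were more often called lower than higher in Pomc-high neurons. The summed level of the list went the other way at E11.5, E13.5 and E15.5. It was 14.8, 8.06, 5.25 and 2.45 UMIs per 10000 in Pomc-high and 12.5, 6.08, 4.92 and 3.08 in Pomc-low neurons. Of 17 tested genes 6 were lower in Pomc-high neurons, Fabp7, Hes1, Top2a, Ccnd1, Ccnd2 and Cdk1, and 1 was higher, Vim, with a median log2 ratio of -1.53. The count of lower genes depended on which cells were taken as neurons. With at least 5 of the 6 neuronal genes required, 1 of 15 tested genes was lower, Ccnd2, and the median was -0.66, and Fabp7 then had a log2 ratio of -1.83 (adjusted p = 0.133). Without the cells with markers of other types 4 were lower, with a median of -1.04, and in thinned cells 3 of 12. With at least 10 UMIs in every sum 7 were tested, 1 higher and 1 lower, with a median of -0.39. Means over cells tested with limma also gave 1 higher and 1 lower. Myc lay on the Pomc-high side, at log2 ratios of 0.784 to 1.45 over 17 alternatives, and passed in 3 of them. Vim, which encodes the filament protein vimentin, stood at 12.7, 6.74, 4.35 and 1.54 UMIs per 10000 in Pomc-high and at 8.58, 3.79, 2.15 and 1.15 in Pomc-low neurons (log2 ratio 0.80 ± 0.12, adjusted p = 0.0126). It was higher in each library. Mesenchymal-marker cells, with at least 4 of the 8 markers, held 14.5 to 17.51. Without the cells that carried at least 3 mesenchymal or 3 macrophage markers the log2 ratio of Vim was 1.02. Fabp7, a fatty acid binding protein of radial glia, stood at 0.0412, 0.0192, 0.0506 and 0.0759 in Pomc-high and at 0.405, 0.297, 1.35 and 0.983 in Pomc-low neurons (log2 ratio -3.86 ± 0.24, adjusted p = 0.000867). Hes1 and Cdk1 did not pass without the cells with markers of other types, with log2 ratios of -1.04 in place of -2.91 and -1.52 in place of -3.09.

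The 16 genes of neuronal maturation gave no call, with a median log2 ratio of 0.07. Nefl and Nefm, the light and medium neurofilament genes, had wide ratios at E11.5, where Nefl stood at 24.5 UMIs per 10000 in Pomc-low and 7.60 in Pomc-high neurons, and Nefm at 17.2 and 3.87. At E17.5 the order was the other way round, with 0.638 and 1.27 for Nefl and 0.185 and 0.266 for Nefm. Map2, a dendritic protein, stood at 1.97 to 2.58 in Pomc-high and at 2.49 to 4.21 in Pomc-low neurons, lower in each library (log2 ratio -0.39 ± 0.09, adjusted p = 0.0622), and it passed in 8 of 17 alternatives, with adjusted p from 0.0129 to 0.494. Ncam1 stood at 7.21 to 10.6 in Pomc-high and at 6.60 to 8.69 in Pomc-low neurons (adjusted p = 0.0696).

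Guidance and adhesion genes were tested in full, and 5 of 22, Slit2, Epha3, Epha7, Cdh8 and Cdh11, were lower in Pomc-high neurons. None was higher in the main fit (median log2 ratio -0.98). Lower were thus 22.7% of the list and 4.06% of all genes tested. With DESeq2 10 were lower and 2 higher, and without a filter on low counts 9 and 2. Without the highest Scrublet scores 3 were lower. Only 1 was lower without E13.5, with at least 10 UMIs in every sum, or with limma on means over cells. Slit2, a repellent ligand, had the smallest error of the 5, at 0.194 to 0.234 UMIs per 10000 in Pomc-high and 0.283 to 0.498 in Pomc-low neurons (log2 ratio -0.87 ± 0.11, adjusted p = 0.00939). Epha7, an ephrin receptor, and Cdh11, a cadherin, were also held by mesenchymal-marker cells, at 1.03 to 3.35 and 0.680 to 2.15, and without cells with markers of other types Epha7 did not pass (adjusted p = 0.0562). Robo2, a receptor for Slit ligands, stood at 1.505, 2.16, 1.08 and 0.210 in Pomc-high and at 0.719, 0.907, 0.742 and 0.211 in Pomc-low neurons (adjusted p = 0.0576). Nrp2, a semaphorin receptor, stood at 0.0446, 0.122, 0.338 and 0.521 against 0.613, 0.748, 0.679 and 0.874 (adjusted p = 0.0695).

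Of 12 tested genes of the retinoid, Wnt and hedgehog pathways 1 was higher in Pomc-high neurons, Shh, and 4 were lower, Crabp1, Crabp2, Wnt5a and Lef1 (median log2 ratio -0.54). Shh, the ligand of the hedgehog pathway and a signal of the ventral midline, stood at 0.719, 0.358, 0.135 and 0.131 UMIs per 10000 in Pomc-high and at 0.0904, 0.0780, 0.0573 and 0.0718 in Pomc-low neurons (log2 ratio 2.06 ± 0.36, adjusted p = 0.0229). Every Pomc-high value lay above every Pomc-low value. Crabp1, a retinoic acid binding protein, stood at 29.6 in the Pomc-low neurons of E11.5 against 1.05 in the Pomc-high ones, and at or below 0.109 in both classes later (adjusted p = 0.0379, 0.336 with DESeq2 and 0.433 without E11.5). Crabp2 was lower in each library, with 3.06, 0.446, 0.178 and 0.0690 against 7.91, 2.46, 0.359 and 0.111 (adjusted p = 0.0229). Lef1, a nuclear factor of Wnt signalling, stood at 0.201, 0.0652, 0.0333 and 0.0207 against 0.632, 0.456, 0.123 and 0.0349 (adjusted p = 0.00939).

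The remaining lists were short. Of the endothelial list 3 of 6 genes were tested and Cdh5 was lower in Pomc-high neurons, and of the glial list 3 of 8 were tested and Gja1 and Slc1a3 were lower. Cdh5, Gja1 and Slc1a3 were each higher in mesenchymal-marker cells than in either class, with up to 1.81, 7.98 and 5.08 UMIs per 10000. Slc1a3 did not pass without cells with markers of other types (adjusted p = 0.115), and Cdh5 and Gja1 then had too few UMIs for a test. None of 8 tested genes of the early response to dissociation passed. Fos stood at 0.0743, 0.220, 1.37 and 1.00 in Pomc-high and at 0.0322, 0.363, 1.46 and 1.42 in Pomc-low neurons (adjusted p = 0.888).

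Outside the lists, genes were taken by size among those that passed, lay on the same side in all 4 libraries and had a mean level of at least 1 UMI per 10000 in the higher class, which held 46 higher and 36 lower genes. The 12 largest log2 ratios on the Pomc-high side belonged to Prdm12, Tagln2, Igfbp5, Calb1, Tle4, Mpped2, Prkce, Arhgdig, Tspan17, Tmeff2, Peg3 and Slc25a5, from 2.56 to 0.97. Tagln2, an actin-binding protein, stood at 1.84, 2.96, 1.80 and 0.386 UMIs per 10000 in Pomc-high and at 0.766, 0.222, 0.417 and 0.197 in Pomc-low neurons (log2 ratio 2.15 ± 0.46, adjusted p = 0.0449), and did not pass without the cells with markers of other types (0.0564). Calb1, the calcium buffer calbindin, stood at 2.30, 1.12, 2.43 and 2.31 in Pomc-high and at 0.533, 0.923, 0.651 and 0.565 in Pomc-low neurons (log2 ratio 1.67 ± 0.29, adjusted p = 0.0235). Its classes were close at E13.5 and well apart in the other libraries.

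Tle4, a co-repressor of the Groucho family, was steadier, with 2.15, 2.64, 1.99 and 2.17 UMIs per 10000 in Pomc-high against 0.547, 0.895, 0.995 and 0.940 in Pomc-low neurons (log2 ratio 1.52 ± 0.17, adjusted p = 0.00490). Igfbp5, which binds insulin-like growth factors, stood at 1.46, 1.57, 0.940 and 0.893 against 0.454, 0.294, 0.429 and 0.415 (log2 ratio 1.69 ± 0.24, adjusted p = 0.0121). For both genes the classes did not overlap across ages. Peg3, a paternally expressed zinc finger gene, stood at 3.44, 4.07, 5.11 and 6.53 in Pomc-high and at 1.23, 1.55, 3.08 and 4.02 in Pomc-low neurons (log2 ratio 1.16 ± 0.17). Slc25a5, the ADP/ATP carrier of mitochondria, had the smallest of the 12 ratios and the smallest error, with 12.7, 6.66, 10.7 and 5.97 against 7.07, 3.98, 5.24 and 3.22 (log2 ratio 0.97 ± 0.07, adjusted p = 0.00140).

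**Figure D5:**
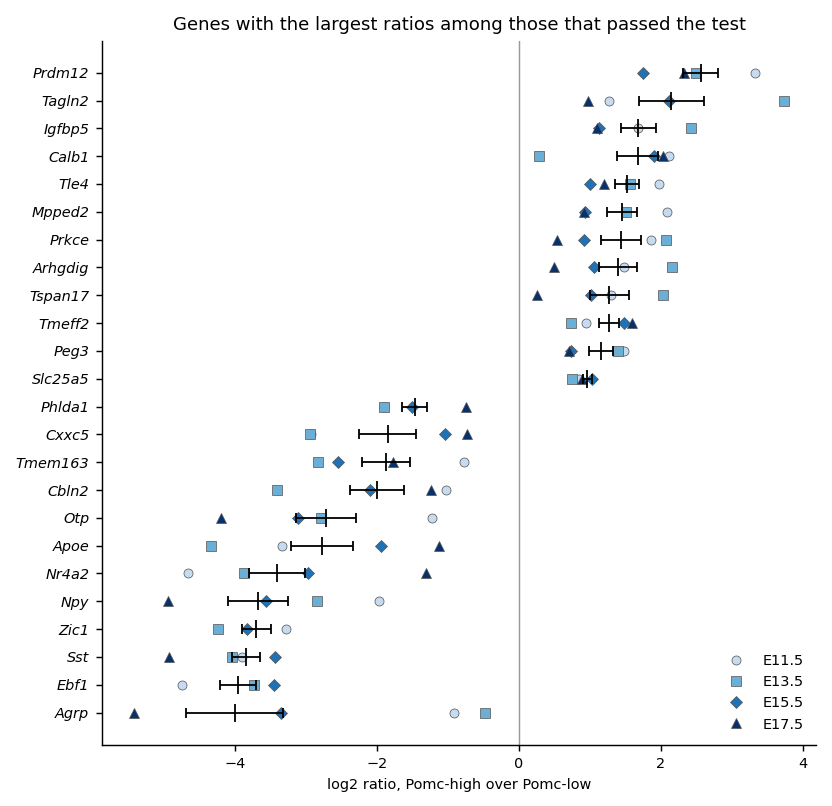
Log2 ratio of Pomc-high over Pomc-low neurons (x axis) of the 12 genes on each side with the largest fitted ratios among those that passed the test (y axis). Bars give the fitted value with its SE and symbols the ratio in each library, left out where a class had 0 UMIs. Prdm12 has the largest ratio on the right, at 2.56, and Agrp the largest on the left, at -4.01, with the E11.5 and E13.5 symbols of Agrp near 0.

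On the Pomc-low side the 12 genes were Agrp, Ebf1, Sst, Zic1, Npy, Nr4a2, Apoe, Otp, Cbln2, Tmem163, Cxxc5 and Phlda1, with log2 ratios from -4.01 to -1.47. Zic1, a zinc finger factor, stood at 1.45, 3.53, 1.12 and 0.0595 UMIs per 10000 in Pomc-low and at 0.149, 0.187, 0.0781 and 0 in Pomc-high neurons, where 0 allows up to 0.0103 (log2 ratio -3.70 ± 0.21, adjusted p = 0.000627). Cbln2, a synaptic organizer of the cerebellin family, was highest at E13.5, at 4.39 against 0.411 (log2 ratio -2.005 ± 0.38, adjusted p = 0.0316). Apoe, a lipid carrier of glia, macrophages and mesenchymal cells, stood at 0.743, 1.28, 2.74 and 0.121 in Pomc-low and at 0.0732, 0.0627, 0.710 and 0.0552 in Pomc-high neurons (log2 ratio -2.77 ± 0.44, adjusted p = 0.0161). Without cells with markers of other types its log2 ratio was -0.28 (adjusted p = 0.472). Ebf1, Sst, Zic1, Npy, Nr4a2 and Otp passed without these cells as well.

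The calls of named genes leaned on E13.5 more than on the other libraries. With every library left out in turn Prdm12, Ebf1, Ebf3, Pou4f1, Dlx5, Barhl1, Lhx1, Lhx9, Lmx1a, Foxa1, Uncx, Irx3, Npy, Sst, Slc17a6, Slc32a1, Prokr1, Fabp7, Top2a, Ccnd2, Epha3, Lef1, Col1a1, Col3a1, Lum, Dcn, Gja1, Slc1a3, Igfbp5, Tle4, Tmeff2, Slc25a5, Zic1 and Phlda1 passed each time. Without E11.5 17 of the 84 genes were tested and did not pass, namely Cartpt, Hdc, Prlr, Ccnd1, Cdh11, Crabp1, Crabp2, Foxc1, C1qc, Cx3cr1, Tagln2, Calb1, Prkce, Arhgdig, Tspan17, Apoe and Cxxc5. Without E13.5 these were 40 genes, Hmx2, Ebf2, Otp, Dlx1, Nr4a2, Lmx1b, Irx5, Tac1, Tac2, Cartpt, Adcyap1, Gad1, Gad2, Hdc, Prlr, Sstr2, Vim, Hes1, Ccnd1, Slit2, Epha7, Cdh8, Cdh11, Shh, Crabp1, Wnt5a, Col1a2, Pdgfra, Foxc1, Twist1, C1qc, Mpped2, Prkce, Arhgdig, Tspan17, Peg3, Apoe, Cbln2, Tmem163 and Cxxc5. Without E15.5 they were 26 genes, Rax, Hmx2, Otp, Lmx1b, Agrp, Cartpt, Gad2, Hdc, Prlr, Sstr2, Vim, Slit2, Epha7, Cdh11, Crabp2, Wnt5a, Pdgfra, Cdh5, Tagln2, Calb1, Prkce, Arhgdig, Tspan17, Cbln2, Tmem163 and Cxxc5. Without E17.5 they were 2, Agrp and C1qc. A fit on 3 libraries has fewer sums, and the cause of each loss was not tested.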

How the data were processed

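Single-cell RNA sequencing counts of hypothalamic reporter cells were analysed, 1 file per library. The authors deposited UMI counts per gene and cell, not normalized, after filters on UMIs, genes, mitochondrial and hemoglobin share and on Pomc. The submitters' processing notes name Cell Ranger 2.2.0 and 3.0.0, Seurat 3.0 and mm10, without saying which version made which file. The postnatal libraries were not used here beyond their number of cells. Levels are UMIs of a class divided by its total, per 10000, from 3′ counts and not divided by gene length. The transcript of DsRed was not analysed here.

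Classes were made with Python 3.11.15 and numpy 2.4.6, and summed counts were tested in R 4.3.3 with edgeR 4.0.16 (TMM, filterByExpr, library and class as terms, quasi-likelihood F test). Pomc and the 6 neuronal genes of the rule were left out of the test. DESeq2 1.42.0 and limma 3.58.1 served as alternatives. The edgeR step was tested on simulated data before use. The members, lists and tests were chosen with earlier results of these data known.

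Genes named in the text are the markers of the class, members of 17 lists with at least 1 UMI per 10000 in a class of some library or on which a count of the list turns, and, among genes that passed with the same direction in all 4 libraries and a mean of at least 1 UMI per 10000 in the higher class, the 12 genes each way with the largest ratio. Other members were counted and not named, and 1 gene that the rule takes is not reported here. Gene positions come from GENCODE M21 (GRCm38). The alternatives were DESeq2, 2 filters, no library block, other limits for Pomc and for neurons, cells thinned to 5000 UMIs, no doublets by Scrublet score, no cells with markers of other types, means over cells with a pseudocount of 0.1, and leaving out each library. An edgeR fit with adjusted deviances was added after seeing the data.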

Additional observations from a re-analysis of the deposited data

Results flagged for a closer look

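In each of 77 named genes with at least 4 UMIs in all 8 sums, the 4 library ratios were checked for 1 library far from the other 3, which chance gives in about 1 of 20 such sets of 4 values. It was seen in 3 genes. Calb1 had a log2 ratio of 0.28 at E13.5 and of 1.90 to 2.11 in the other libraries. Calcr, the calcitonin receptor gene, had 1.09 at E11.5 and between -1.75 and -1.59 elsewhere. Gap43, a growth cone protein, had -0.57 at E11.5 and 0.28 to 0.37 elsewhere. The number of genes found is close to what chance gives.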

How the results depend on the processing

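With edgeR on all 8 sums 230 genes were higher and 506 lower in Pomc-high neurons. DESeq2 gave 495 and 633. No filter on low counts gave 470 and 1071 of 19921 genes, and at least 10 UMIs in every sum gave 62 and 62 of 10125. Adjusted deviances, chosen after seeing the data, gave 368 and 741. Means over cells tested with limma gave 49 and 72. Without the library block edgeR gave 0 and 0, with 1184 genes at an unadjusted p under 0.05. Neurons with 5 of the 6 neuronal genes gave 190 and 286, thinned cells 167 and 276, and neurons without markers of other types 174 and 273. Leaving out a library gave 41 to 411 higher and 136 to 841 lower genes. Under 5 of 6 neuronal genes the Pomc-high share of E11.5 was 37.9%. Of 84 named genes that passed, 83 kept their direction in every alternative that tested them. Col3a1 did not, with a log2 ratio of 0.073 (adjusted p = 0.959) without cells that carried markers of other types. It is 1 of the markers by which those cells were left out. No named gene passed in all 17 alternatives, since none passed without the library block. No paired analysis by replicate number was possible because each age has 1 library, and the library itself is the block. The cause of other differences was not tested. Depth limits genes under about 0.01 UMIs per 10000, where a class of E17.5 holds 3 UMIs or fewer.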
